A study of Mus musculus with 87 samples.

Results

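RLTR13 is a set of long terminal repeats (LTRs) left in the mouse genome by endogenous retroviruses. Every locus whose repeat name starts with RLTR13 was taken from the coordinate lists that accompany the deposited repeat counts of the embryos. This gave 9538 loci under 23 names, of 3725827 repeat loci under 1146 names. The loci were set against the binding sites of OBOX4, a homeobox protein of the early mouse embryo, and of DUX, the double homeobox protein that turns on many genes at genome activation. Histone marks at the loci, genes starting near them and RNA assigned to their names were then compared across the experiments.

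OBOX4 sites came from CUT&RUN of mouse embryonic stem cells (mESCs) that overexpressed *Obox4* (n = 3 peak lists), and DUX sites from mESCs that overexpressed *Dux* (1 list, no replicate). CUT&RUN of H3K4me3, H3K27ac and H3K27me3 covered WT and *Obox4* KO mESCs, each untreated or treated with pladienolide B (PlaB), a splicing inhibitor that moves mESCs toward a totipotent-like state (n = 3 lists per mark and group). RNA-seq covered mESCs with a doxycycline-inducible 3xFLAG-*Obox4* transgene at 0, 12 and 48 h (n = 3 each). In 2C-embryos, zygotes had been injected with antisense oligonucleotides against a scramble sequence, *Obox4*, *Dux* or both, or against both together with codon-optimised *Obox4* mRNA, called rescue (n = 2 each). Morulae carried scramble or double KD (n = 2 each), and 2C blastomeres were all *Dux* KO with *Obox4* WT, Het or KO (n = 2 each). The last experiment was PlaB-treated mESCs that were WT, *Obox4* KO, *Dux* KO or double KO (n = 3 each). The mESCs derived from the EB3 line, the inducible and knockout lines were grown from single cells, and the double KO line was made from an *Obox4* KO line. The study's methods call the pools of 2C-embryos independent biological replicates. For the mESC libraries the labels tie no replicate to a clone of its own, so their p-values reflect how far these libraries scatter, which may be technical.

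The libraries held 14283083 to 104864947 gene counts and 1744372 to 24242753 repeat counts. *Pou5f1* was read in every group, at 110 to 586 CPM (counts scaled to a common library total), and *Nanog*, a marker of pluripotent cells, reached 250 to 1620 CPM in the mESC groups. Summed over its near-identical copies, *Obox4* rose from 0.385 to 0.611 CPM at 0 h to 7.08 to 8.51 CPM at 48 h. In PlaB the WT libraries held 15.6 to 17.0 CPM, the *Obox4* KO libraries 4.68, 3.65 and 11.9, the *Dux* KO libraries 0.116 to 0.13 and the double KO libraries 0 to 0.192, so the *Dux* KO cells were also low in *Obox4*. *Obox4* RNA is a weak check of the embryo labels, since it does not measure the protein and an antisense oligonucleotide can act without lowering the counts. It was 68.0 and 83.5 CPM in 2C-embryos labelled *Obox4* KD against 68.4 and 76.0 in scramble. In *Dux* KD (52.4 and 47.6), double KD (44.1 and 41.7) and the rescue (31.4 and 38.5) it was below scramble. *Duxf3*, read for *Dux*, was 3.66 and 1.93 CPM in *Dux* KD and 3.86 and 2.92 in double KD. In scramble it was 6.49 and 7.68, in *Obox4* KD 8.37 and 5.54 and in the rescue 8.16 and 5.78. *Obox4* RNA was higher in morulae labelled double KD (3.74 and 7.93) than in scramble (0.321 and 0.351). It overlapped between blastomeres labelled WT (20.7 and 31.0), Het (32.2 and 14.4) and KO (19.4 and 27.9). The study's knockout removed the *Obox4* cluster and kept an intact copy outside it, whereas the sum here takes in all copies. The study also genotyped the embryos of the blastomeres by PCR and stained OBOX4 and DUX protein in its knockdown 2C-embryos. It showed *Dux* and *Obox4* transcript levels of its injected embryos from RNA-seq as well. PlaB *Obox4* KO replicate 3 and PlaB double KO replicate 3 stood apart from the other libraries of their groups, with a chi-square per degree of freedom of 108 to 113 and 312 to 318 against 3.76 and 22.1 between the remaining pairs. In the induction experiment 12 h replicate 1 differed from the others of its group at 95.4 and 85.6, against 30.1 between those. For 48 h replicate 1 the values were 66.4 and 49.4, against 28.2. The morula double KD pair differed at 204 and the blastomere pairs at 116 to 221.

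An LTR carries the enhancer and promoter of its virus, and solitary LTRs can go on acting as regulatory sequence for the host. RLTR13 belongs to the ERVK class of rodent retroviruses. LTRs of this kind are known as binding platforms of pluripotency factors in mESCs, as for RLTR9, and of trophoblast factors in the placenta, as for RLTR13D5. H3K27ac marks active enhancers and promoters, H3K4me3 marks promoters, and H3K27me3 marks regions held silent by Polycomb.

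The loci with the strongest OBOX4 enrichment are shown first, 2 for each of the 3 names with the highest share of bound loci, as windows of 201 bases that run from 60 bases 5′ to 140 bases 3′ of the mean peak summit along the LTR. They come from the mm10 (GRCm38) genome, read 5′ to 3′ in the sense of the LTR. Capitals mark ATCCCAG, which is CTGGGAT on the other strand and the core of the binding motif that the study found for OBOX4, and ACAATGG, the core bound by SOX proteins. ACAATGG was added to the search after the letters around the summits had been counted.

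RLTR13B2, chr2:154899148-154899348, minus strand: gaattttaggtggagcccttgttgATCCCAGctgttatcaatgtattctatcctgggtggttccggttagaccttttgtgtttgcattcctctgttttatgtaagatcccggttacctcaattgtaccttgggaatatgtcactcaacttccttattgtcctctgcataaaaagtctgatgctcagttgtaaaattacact
RLTR13B2, chr3:111876267-111876467, minus strand: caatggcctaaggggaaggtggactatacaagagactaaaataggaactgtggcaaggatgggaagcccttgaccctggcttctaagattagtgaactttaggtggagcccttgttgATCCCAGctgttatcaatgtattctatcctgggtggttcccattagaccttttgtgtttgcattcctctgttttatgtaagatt
RLTR13B1, chr13:21865466-21865666, plus strand: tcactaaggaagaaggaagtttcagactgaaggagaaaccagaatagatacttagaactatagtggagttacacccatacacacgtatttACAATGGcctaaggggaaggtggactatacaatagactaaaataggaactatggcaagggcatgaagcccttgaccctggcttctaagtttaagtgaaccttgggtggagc
RLTR13B1, chr9:96487639-96487839, plus strand: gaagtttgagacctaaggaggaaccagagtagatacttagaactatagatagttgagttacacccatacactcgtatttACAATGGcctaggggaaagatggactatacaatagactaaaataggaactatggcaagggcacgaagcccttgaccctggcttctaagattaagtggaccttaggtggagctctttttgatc
RLTR13D6, chr8:69018909-69019109, minus strand: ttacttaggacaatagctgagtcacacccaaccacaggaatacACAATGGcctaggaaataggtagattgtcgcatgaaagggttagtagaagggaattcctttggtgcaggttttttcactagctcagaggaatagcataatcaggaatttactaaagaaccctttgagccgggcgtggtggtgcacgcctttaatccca
RLTR13D6, chr2:51448283-51448483, plus strand: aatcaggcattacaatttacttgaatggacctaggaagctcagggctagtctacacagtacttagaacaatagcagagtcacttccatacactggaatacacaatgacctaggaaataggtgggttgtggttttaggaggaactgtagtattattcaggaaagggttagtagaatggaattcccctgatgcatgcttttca

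Both RLTR13B2 windows hold ATCCCAG, the RLTR13B1 windows hold ACAATGG, and of the RLTR13D6 windows the first holds ACAATGG and the second neither. The first RLTR13B2 locus lies in an intron and had enrichments over local background of 145, 137 and 119 in the 3 OBOX4 lists. Its nearest named gene start, 6100 bases away, was that of *Eif2s2*, a translation initiation factor gene. Which gene holds an intron was not recorded, so it need not be the gene named here. The second lies between genes, at 113, 107 and 95.4. The RLTR13B1 locus of chromosome 13 lies between genes at 160, 137 and 117, and that of chromosome 9 in an intron at 105, 109 and 89.2. The nearest named start to the latter, 8566 bases away, was that of *Rnf7*, a ubiquitin ligase subunit gene. The RLTR13D6 loci lie between genes at 81.4, 88.9 and 72.7, and at 61.2, 49.2 and 45.3, and the window of the first runs past the 3′ end of its LTR.

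OBOX4 occupied RLTR13 far above the share of repeats in general. Of the 9538 loci, 1235 (12.9%, 95% Wilson interval 12.3 to 13.6) lay under an OBOX4 peak in at least 2 of the 3 lists, against 26851 (0.721%) of all repeat loci. These loci are called bound below, and the intervals cover counting error alone. The lists taken singly gave 14.9%, 12.3% and 12.5% of RLTR13 loci, and 1049 loci lay under a peak in all 3, 186 in 2 and 273 in 1. RLTR13 made up 0.256% of repeat loci and 4.6% of the bound ones. RLTR9 had a like share, 810 of 5839 loci (13.9%, 13 to 14.8), whereas other RLTR names had 0.926% and MT2_Mm, the LTR of the MERVL retrovirus that DUX activates, had 7.95%.

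The names within RLTR13 spanned the whole range from none to nearly every second locus. RLTR13B2 had the highest share, 145 of 314 loci (46.2%, 40.7 to 51.7), and its interval stood clear of all other names. RLTR13D6 (235 of 805, 29.2%, 26.2 to 32.4), RLTR13B1 (256 of 1029, 24.9%, 22.3 to 27.6) and RLTR13E (133 of 603, 22.1%, 18.9 to 25.5) followed, each with an interval that overlapped that of its neighbour. RLTR13G (17.9%, 15.5 to 20.6), RLTR13F (17.3%, 11.1 to 26.0) and RLTR13D4 (16.6%, 12.1 to 22.3) could not be told apart. RLTR13C2 and RLTR13C3 (both 11.7%) and RLTR13B3 (10.9%) formed the next step, then RLTR13C1 (5.83%), RLTR13B4 (3.16%), RLTR13D3 (2.36%) and RLTR13D5 (17 of 745, 2.28%). RLTR13A1, RLTR13D1, RLTR13D3A1, RLTR13A and RLTR13D2 lay between 0.37% and 1.46%. No locus was bound among the 151 of RLTR13A2, the 243 of RLTR13A3, the 45 of RLTR13D or the 162 of RLTR13D3A, which allows shares of up to 1.99%, 1.23%, 6.67% and 1.85%. RLTR13B1, RLTR13B2, RLTR13D6, RLTR13E and RLTR13G together gave 926 (75%) of the bound loci.

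**Figure D1:**
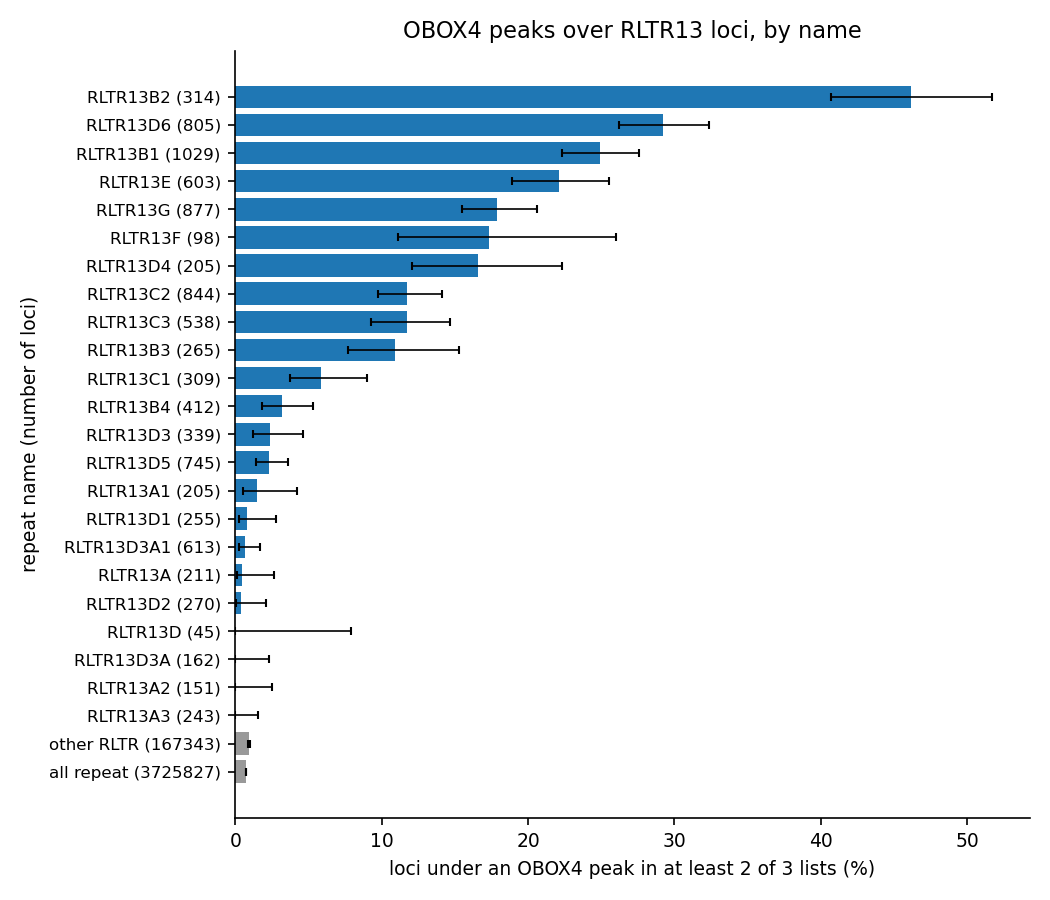
Share of loci (%, horizontal axis) under an OBOX4 peak in at least 2 of 3 lists for each RLTR13 name, with the number of loci in brackets, other RLTR names and all repeat loci in grey, and 95% Wilson intervals as lines. RLTR13B2 stands at 46.2%, above RLTR13D6 at 29.2% and RLTR13B1 at 24.9%, and all repeat loci are at 0.721%.

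Longer loci were bound more often. Of RLTR13 loci under 200 bases, 52 of 1507 (3.45%) were bound, of those from 200 to under 600 bases 210 of 2023 (10.4%), and of those of at least 600 bases 973 of 6008 (16.2%). All repeat loci of at least 600 bases gave 0.892% of 326283. Among loci of at least 600 bases RLTR13B2 reached 56.4%, RLTR13G 40.9%, RLTR13D6 36.2%, RLTR13B1 and RLTR13F 29.8%, RLTR13E 28.2% and RLTR13D4 27%, so that RLTR13G, most of whose loci are short, moved from the fifth to the second place. On the Y chromosome 3 of 996 loci were bound and on the X 63 of 859. Short sequencing reads from near-identical copies can be hard to place, and the part of this in the low Y share was not tested.

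Peaks over bound RLTR13 loci had higher enrichment than the median of all peaks. The median enrichment of the peaks over bound loci was 10.0, 9.25 and 8.21 in the 3 lists, against 4.88, 5.62 and 4.77 over all peaks (27988, 20620 and 22481 peaks). RLTR13B2 had medians of 14.0, 12.6 and 11.5, RLTR13B1 13.3, 11.2 and 10.3, and RLTR13D6 7.97, 7.87 and 6.62. RLTR13D6 thus had lower peaks than RLTR13B1 in every list. Their order by share of bound loci turned with stronger peaks alone (-log10 q of at least 10), at 17.3% and 20.8%.

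The summits fell in a narrow band of the LTR. In bound loci of at least 600 bases the mean summit of the lists lay inside the LTR in 98.4%, at a median of 453 bases from its 5′ end (middle range from the lower to the upper quartile 406 to 515) for a median length of 876. RLTR13B2 had its summits at 415 (377 to 446) of 820 bases, RLTR13D6 at 431 (382 to 461) of 871 and RLTR13B1 at 514 (476 to 558) of 886. RLTR13D4 was the widest of these, at 646 (412 to 679) of 997. Summits of 1 locus differed between lists by a median of 50 bases, and by 31 in RLTR13B2, so the bands of RLTR13B2 and RLTR13B1 lie farther apart than the lists do.

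**Figure D2:**
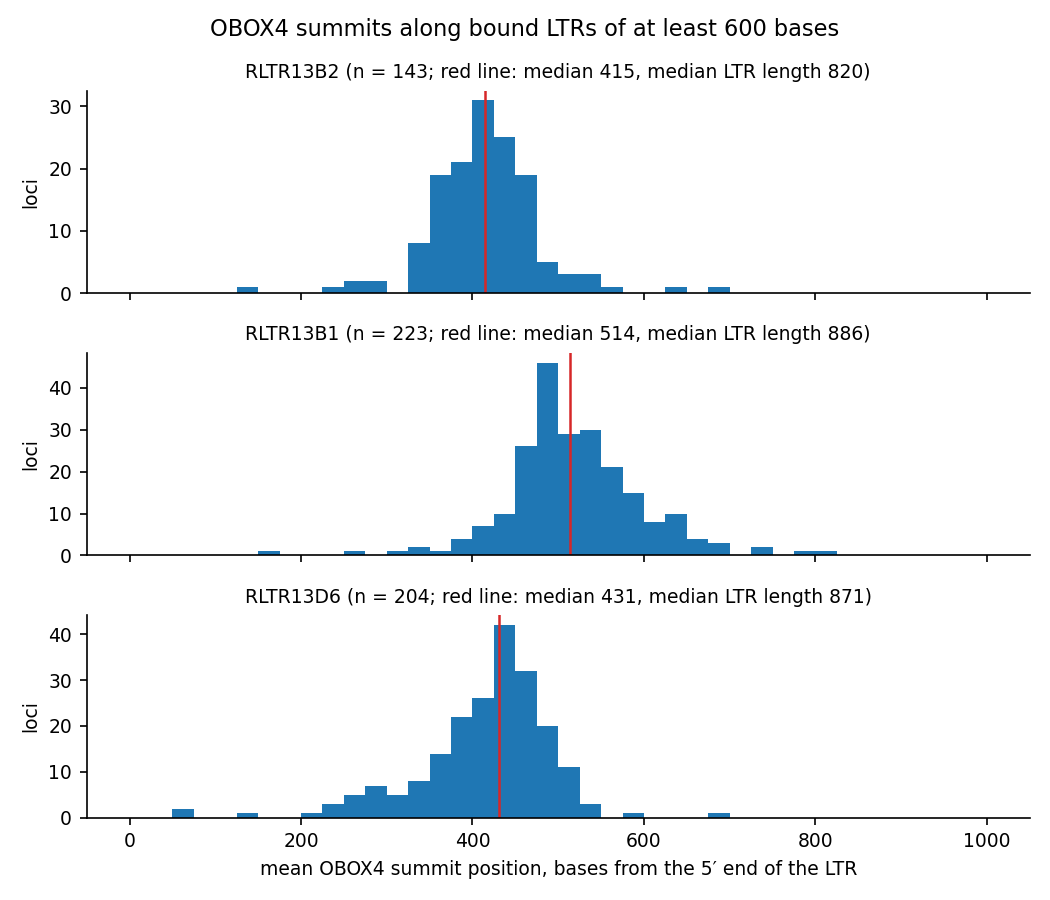
Number of bound loci (vertical axis) by the mean OBOX4 summit position in bases from the 5′ end of the LTR (horizontal axis, bins of 25 bases), for loci of at least 600 bases of 3 names, with the median as a red line. The medians are 415 in RLTR13B2, 514 in RLTR13B1 and 431 in RLTR13D6.

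The search covered both strands. The core CTGGGAT is part of the study motif, so that their matches overlap. GGGATTA, of the kind that homeobox proteins bind, opens with letters that close this core. The SOX core and the full OBOX4 motif of the study were searched in the same way. In windows of 201 bases around the summits of bound RLTR13 loci (n = 970), the OBOX4 core was present in 37.8%, the study motif in 32.0%, the SOX core in 54.8% and GGGATTA in 0.619%. Windows of the same length in the middle of repeat loci (n = 1418009) held them in 4.61%, 0.502%, 4.48% and 2.47%, and those around the OBOX4 summits of list 1 (n = 27713) in 10.1%, 5.12%, 5.6% and 7.65%. Both sets of background windows were centred, whereas the RLTR13 windows reached 60 bases 5′ and 140 bases 3′ of the summit. The part of this placement in the shares was not tested. RLTR13 held the study motif and the SOX core more often, and GGGATTA less often, than either background. The study had derived its motif from the strongest peaks of the same OBOX4 CUT&RUN, and the SOX core was picked from letters around these summits. The higher shares of both thus describe RLTR13 and are no independent test.

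Whether the motif was there set the names apart more than it set bound loci apart from unbound ones. In loci of at least 600 bases the study motif stood in 80.7% of bound and 84.8% of unbound RLTR13B2 loci (n = 145 and 112) and in 81.2% and 77.8% of RLTR13B1 loci (n = 224 and 526). RLTR13D4 held it in 74.2% and 59.0%, RLTR13C2 in 70.9% and 64.6% and RLTR13C3 in 64.4% and 44.0%. RLTR13B3 differed from these, with the motif in 9 of 27 bound loci (33.3%) and 5 of 203 unbound ones (2.46%). RLTR13D6, RLTR13E, RLTR13F and RLTR13G lacked it almost wholly, with 1 bound RLTR13D6 locus (0.485%) as the exception, although their loci were among the most often bound. Where CTGGGAT was present in bound loci it was read from the other strand of the LTR in 99.8% of matches. The study motif had its median at base 523 in RLTR13B2, 113 bases 3′ of the summit, and 90 bases 3′ of it in RLTR13B1.

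ACAATGG, which had been added after the summits were looked at, lay near the summit in some names and away from it in others. It was in 96.6% of bound and 75% of unbound RLTR13B2 loci, at a median of base 410 and 1 base from the summit. In RLTR13B1 it was in 90.2% and 74.9%, 25 bases 5′ of the summit, and in RLTR13D6 in 72.3% and 70.2%, 12 bases 3′ of it. RLTR13E held it in 51.8% and 46.0%, 124 bases 5′ of the summit, RLTR13G in 13.4% and 18.8%, 123 bases 5′, and RLTR13F in none of 17 bound loci. RLTR13B4, with 3.16% of its loci bound, held it in 90.9% and 92.1%, 71 bases 5′, so its presence did not follow the share of bound loci between names. These matches are descriptions of letters and do not show which protein was bound.

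DUX sites were rare in RLTR13. Of the 1844 DUX peaks, some covered 18 RLTR13 loci (0.189%, 0.119 to 0.298), against 0.0444% of all repeat loci and 400 (15%) of MT2_Mm loci. The share was 0.0839% with peaks of -log10 q of at least 10 and 0.0105% where 50% of the locus had to be covered. RLTR13D6 had 6 of the 18, RLTR13A2 4, RLTR13B1 3, RLTR13A1 2, RLTR13B4 2 and RLTR13D5 1, and RLTR13B2 had none of 314, which allows up to 0.955%. The 4 RLTR13A2 loci were each 957 bases long and lay on chromosome 8 between bases 19791918 and 20417525. Of the 18 loci, 7 were also bound by OBOX4 (4 of RLTR13D6 and 3 of RLTR13B1), and 10 lay under no OBOX4 peak in any list. Among the shared loci outside chromosome 18, the most enriched was an RLTR13B1 LTR between genes at chr2:27545304-27546192 on the plus strand. It had OBOX4 enrichments of 46.8, 40.3 and 39.5 and lay 30147 bases from the start of *Wdr5*, a subunit gene of H3K4 methyltransferases. With 1 DUX list these counts have no replicate check.

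H3K27ac covered most bound RLTR13 loci in untreated WT mESCs, cells that had not been made to express OBOX4. The 3 WT lists had an H3K27ac peak at 83.0%, 87.1% and 86.8% of bound loci, at 5.67%, 7.64% and 7.78% of unbound RLTR13 loci, and at 1.71%, 2.25% and 2.27% of all repeat loci. Bound repeat loci outside RLTR13 had it at 59.9% to 67.0% and bound RLTR9 loci at 81.1% to 86.5%. Read the other way, 1608 RLTR13 loci had an H3K27ac peak in at least 2 WT lists, and 1063 of them (66.1%) were bound, against 172 of the other 7930 (2.17%). For repeats outside RLTR13 these shares were 23.1% and 0.246%.

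Single names departed from this. H3K27ac covered 95.9% to 98.6% of bound RLTR13B2 loci in WT, and 20.7%, 33.1% and 35.5% of the unbound ones. Bound RLTR13G loci reached 92.4% to 94.3%, RLTR13E 88.7% to 91.0%, RLTR13D6 86.4% to 89.4% and RLTR13B1 84.8% to 87.9%. The 17 bound RLTR13D5 loci were lower, at 35.3%, 52.9% and 41.2%.

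H3K4me3 was less common and split the bound loci. In WT its lists covered 49.6%, 47.0% and 46.8% of bound RLTR13 loci, close to bound RLTR9 (45.8% to 48.0%), and 2.18%, 1.84% and 1.75% of unbound ones. In at least 2 WT lists, 47.1% of bound loci had both marks, 38.9% had H3K27ac alone, 0.81% had H3K4me3 alone and 13.1% had neither. Bound repeats outside RLTR13 had both in 46.8%, H3K27ac alone in 18.2%, H3K4me3 alone in 7.18% and neither in 27.9%. RLTR13 thus had about the same share with both marks and a larger one with H3K27ac alone. Of the 6 names examined RLTR13G had the most H3K4me3 (72.6% to 77.7% of bound loci), RLTR13B2 and RLTR13D6 had less (39.1% to 45.5%) and RLTR13D5 the least (17.6%, 5.88% and 5.88%).

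H3K4me3 peaks over RLTR13 were fewer after PlaB. Over all RLTR13 loci the WT lists covered 8.32%, 7.69% and 7.58% untreated and 3.64%, 3.43% and 2.46% in PlaB, and the *Obox4* KO lists 5.24%, 6.28% and 5.44% untreated and 2.9%, 3.0% and 2.13% in PlaB. The difference was -4.69 percentage points in WT and -2.98 in *Obox4* KO, and -2.21 between untreated *Obox4* KO and WT (for each, groups of 3 lists that did not overlap, exact permutation test, two-sided p = 0.1, the smallest that 3 against 3 allows). In PlaB, *Obox4* KO and WT differed by -0.5 points (exact permutation p = 0.4), with lists that overlapped. Among bound loci the WT lists went from 49.6%, 47.0% and 46.8% to 23.6%, 22.5% and 16.0%, and bound RLTR13D6 to 10.6%, 8.94% and 6.38%, below the other names examined except RLTR13D5, whose 17 bound loci had no H3K4me3 peak in PlaB WT. The peaks of all repeats moved too, from 2.1% to 2.28% of loci in untreated WT to 0.946% to 1.17% in PlaB, and the whole lists covered 68.287 to 72.442 Mb untreated and 39.544 to 44.533 Mb in PlaB. Divided by the share of all repeat loci, RLTR13 went from 3.6 to 3.64 times in untreated WT to 2.61 to 3.11 in PlaB, and from 3.28 to 3.47 in untreated *Obox4* KO to 1.86 to 2.26 in PlaB. On that scale PlaB *Obox4* KO lay below PlaB WT without overlap, with a difference of -0.838 (exact permutation p = 0.1).

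For H3K27ac the direction of the differences depended on the scale. Over all RLTR13 loci the WT lists covered 15.7%, 17.9% and 18% untreated and 14.2%, 13.7% and 15.3% in PlaB, a difference of -2.82 points, and the *Obox4* KO lists 21.4%, 21.5% and 19.0% untreated and 16.8%, 15.3% and 15.1% in PlaB, a difference of -4.91. Untreated *Obox4* KO stood above untreated WT by 3.44 points (for these 3 differences exact permutation p = 0.1, groups not overlapping), and PlaB *Obox4* KO above PlaB WT by 1.35 (exact permutation p = 0.3). As a ratio to all repeat loci, 3 of the 4 turned: RLTR13 stood at 7.93 to 9.15 times in untreated WT and 9.17 to 9.83 in PlaB WT, and at 7.56 to 8.69 in untreated *Obox4* KO and 6.26 to 7.02 in PlaB *Obox4* KO. The H3K27ac lists covered 33.668 to 45.905 Mb in untreated WT, 28.738 to 33.724 Mb in PlaB WT, 44.337 to 57.799 Mb in untreated *Obox4* KO and 42.804 to 52.606 Mb in PlaB *Obox4* KO, and the part of list size in these differences was not tested. Bound RLTR13 loci kept H3K27ac at 77.3%, 76.5% and 80.2% in PlaB WT and at 82.2%, 78.5% and 78.1% in PlaB *Obox4* KO.

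H3K27me3 was scarce on RLTR13. The untreated WT lists covered 1.34%, 1.39% and 1.28% of RLTR13 loci against 3.39%, 3.34% and 3.1% of all repeat loci, and 0.324%, 0.324% and 0.405% of bound ones. PlaB *Obox4* KO had the most, at 1.39%, 1.59% and 2.43% of RLTR13 loci against 1.06%, 1.12% and 0.912% in PlaB WT, a difference of 0.776 points (exact permutation p = 0.1). Its replicate 3 list covered 169.393 Mb, more than any other H3K27me3 list, and without it the difference was 0.463. All repeat loci stood at 3.71%, 3.82% and 5.87% in PlaB *Obox4* KO and at 4.04%, 3.78% and 2.77% in PlaB WT. As a ratio to all repeat loci, RLTR13 stood at 0.376 to 0.417 in PlaB *Obox4* KO and 0.262 to 0.329 in PlaB WT. On that scale untreated WT, at 0.396 to 0.417, overlapped PlaB *Obox4* KO, and untreated *Obox4* KO was at 0.323 to 0.341. In bound loci PlaB *Obox4* KO stood at 1.13%, 1.13% and 1.38%, still far below any other mark there.

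**Figure D3:**
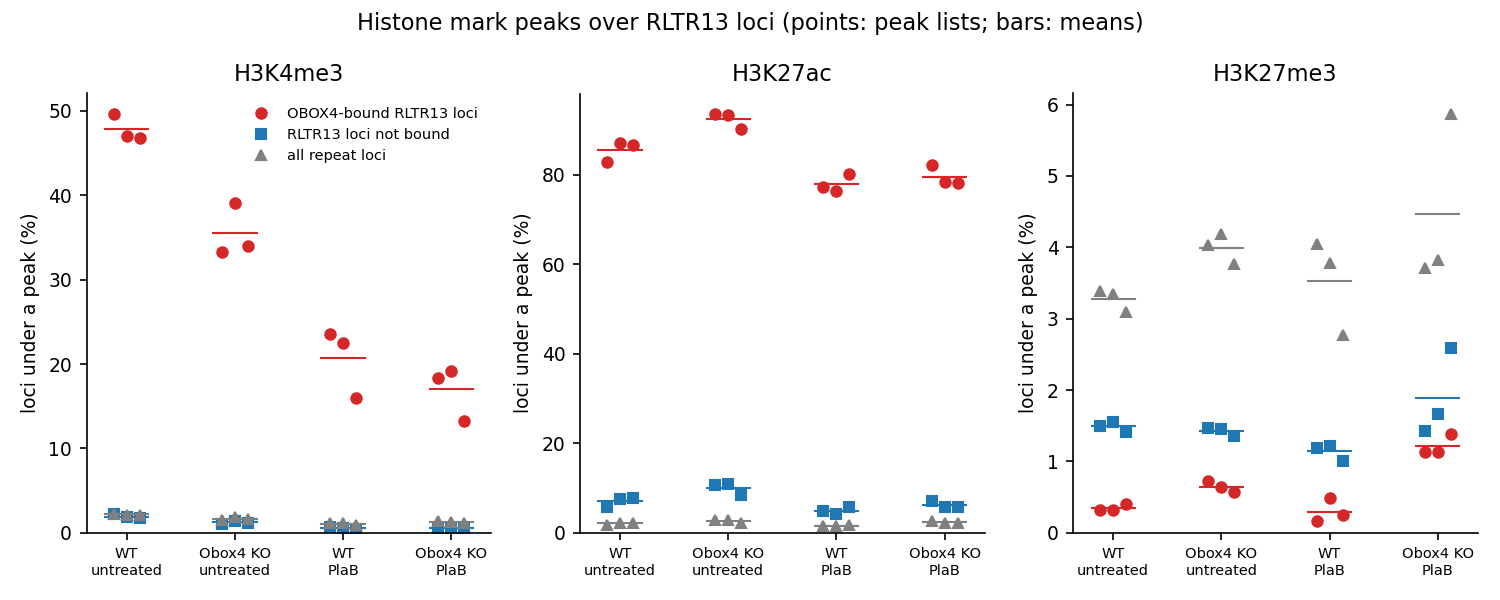
Share of loci (%, vertical axes, which differ between marks) under H3K4me3, H3K27ac and H3K27me3 peaks in WT and *Obox4* KO mESCs, untreated or in PlaB, for bound RLTR13 loci (red), unbound ones (blue) and all repeat loci (grey), with 1 point per peak list and means as bars. H3K27ac covers 76.5% to 93.6% of bound loci over the lists, while H3K4me3 falls from 46.8% or more in untreated WT to 23.6% or less in PlaB.

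Bound loci lay mostly outside genes. Of the 1235, 879 (71.2%) were between genes, 327 (26.5%) in introns and 29 (2.35%) in exons, against 78.0%, 19.3% and 2.72% of unbound RLTR13 loci. No bound locus held a gene start, whereas 14 of 8303 unbound ones did. The median distance to the nearest start was 18592 bases for bound and 18646 for unbound loci, so bound loci were not nearer to genes. Within 20 kb of a bound locus started 1056 genes, and their counts were tested with edgeR's quasi-likelihood test over all genes, with a call where p, adjusted by the Benjamini-Hochberg method, did not exceed 0.01 and the log2 fold change was 1 or more in size.

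After *Obox4* induction, genes near bound loci were called somewhat more often than genes in general, above all among those that fell. At 12 h, 6 of 312 were called (1.92%, against 0.757% of all genes tested), of which 2 were higher (0.641%, against 0.612%) and 4 lower (1.28%, against 0.145%). This count rested on few genes, since 2 were left without 0 h replicate 3 (0.619%, against 0.269%), 6 without 12 h replicate 1 (1.86%, against 1.06%) and 3 without any other single library (0.917% to 0.938%, against 0.301% to 0.401%). At 48 h, 19 of 312 were called (6.09%, against 3.95%). Of these, 12 were higher (3.85%, against 3.37%) and 7 lower (2.24%, against 0.574%), while genes near unbound RLTR13 loci alone were called higher in 5.25% and lower in 0.184%. The labels give replicate numbers but state no pairing, and with the replicate number as a block 11 of 312 were called (3.53%, against 2% of all genes). Leaving out 48 h replicate 2 gave 10 genes (3.09%, against 2.35% of all genes), 0 h replicate 3 gave 11 (3.41%, against 2.06%) and 0 h replicate 2 gave 12 (3.75%, against 2.14%).

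Of the 19 genes, 10 carry clone names, and named genes among the rest are described here. *Grin1*, which encodes the obligatory subunit of NMDA receptors and starts 3944 bases from a bound RLTR13B1 locus, had 25.7, 26.9 and 31.0 CPM at 0 h, 8.43, 8.97 and 8.05 at 12 h and 7.22, 8.31 and 7.85 at 48 h. It fell by 1.84 on the log2 scale at 48 h (SE 0.12, edgeR adjusted p = 1.25e-05), with no overlap between groups. *Tdrd12*, a Tudor protein gene of the piRNA pathway 6607 bases from RLTR13D6, went from 34.5, 33.7 and 30.9 CPM to 15.1, 13.9 and 14.0 (log2 change -1.20, SE 0.11, edgeR adjusted p = 7.04e-05). *Ifitm1*, an interferon-induced transmembrane protein gene 13170 bases from RLTR13B4, went from 72.3, 61.6 and 95.3 CPM to 30.6, 24.4 and 24.6 (-1.53, SE 0.20, edgeR adjusted p = 0.000639). These 3 genes fell in every 48 h library below the lowest 0 h library.

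*Msc*, a basic helix-loop-helix repressor gene 12030 bases from RLTR13D4, went from 7.45, 5.82 and 6.52 CPM to 2.57, 1.27 and 1.45 (log2 change -1.88, edgeR adjusted p = 0.00299), and *Lrr1*, a ubiquitin ligase receptor gene 4249 bases from RLTR13C2, from 16.1, 14.9 and 16.4 to 8.44, 6.36 and 8.2 (-1.04, edgeR adjusted p = 0.00125). The named genes that rose were low at 0 h. *Prss50*, a testis serine protease gene 4566 bases from RLTR13D5, went from 0.244, 0.35 and 0.391 CPM to 1.28, 1.31 and 1.58 (log2 change 2.06, edgeR adjusted p = 0.00334). *Stk32a*, a kinase gene 13334 bases from RLTR13G, rose by 1.60 (edgeR adjusted p = 0.00329), and *Tmem45a*, 15776 bases from RLTR13G, by 1.02 (edgeR adjusted p = 0.00416).

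In PlaB-treated mESCs, genes near bound loci leaned lower in all 3 knockout lines. In *Obox4* KO against WT, 44 of 414 were called (10.6%, against 8.88% of all genes), 37 of them lower (8.94%, against 3.96%) and 7 higher (1.69%, against 4.92%). In *Dux* KO, 44 were called (10.6%, against 6.32%), 40 lower (9.66%, against 4.7%), and in double KO 100 (24.2%, against 18%), 84 lower (20.3%, against 8.79%). The 3 comparisons share the WT libraries. Genes near unbound RLTR13 loci alone also leaned lower, in 6.2%, 7.84% and 14.3%, less than those near bound loci but more than all genes. *Zscan4d*, a marker of the totipotent-like state, stood at 178 to 211 CPM in WT, 85.7 to 220 in *Obox4* KO and 0 in *Dux* KO and double KO, and *Zfp352*, another, at 44.7 to 54.5, 3.71 to 4.3, 0.0387 to 0.13 and 0. In bulk RNA fewer cells in that state and less RNA per cell cannot be told apart, and the part of this in the counts was not tested. Median log2 changes of genes near bound loci were -0.24, -0.21 and -0.49, against 0.02, 0 and -0.06 over all genes.

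Single names carried the lower values further. In double KO, genes near bound RLTR13D6 had a median of -1.12 with 20 of 67 lower (29.9%), those near RLTR13B2 -1.0 with 13 of 38 lower (34.2%), and those near RLTR13B1 -0.44 with 15 of 99 lower (15.2%). The *Obox4* KO count rested on its libraries: without replicate 3, which stood apart, 70 genes were called (15.9%, against 13.6%), 58 of them lower (13.2%, against 6.94%), and without any other single library of the comparison 19 to 22 were called, a share of 4.32% to 5.07% that lay below the 5.26% to 6.24% of all genes. The share called lower stayed above that of all genes in each of these, at 3.41% to 4.15% against 2.3% to 2.4%. In *Dux* KO each left-out library gave 28 or 29 genes, 6.36% to 6.62% against 4.18% to 4.39% of all genes. In double KO leaving out WT replicate 2 gave 65, 14.8% against 13.4%, with 12.3% lower against 6.4%.

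**Figure D4:**
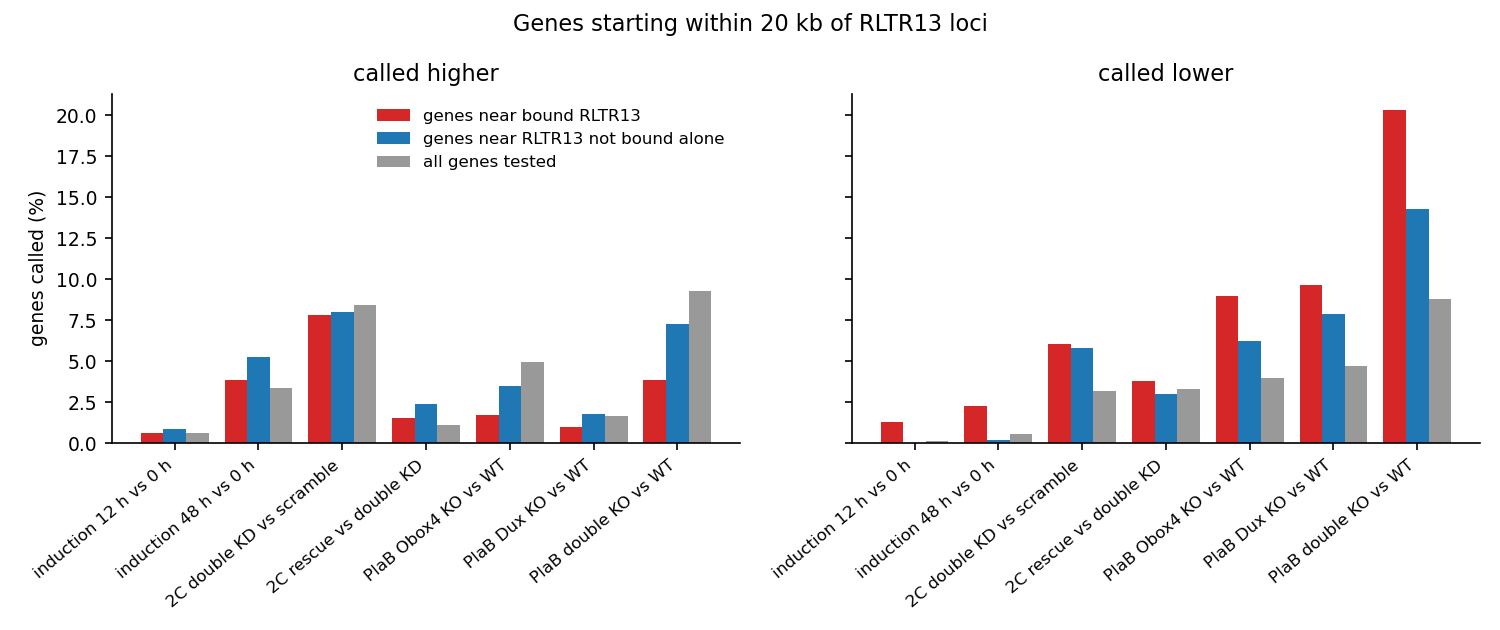
Share of genes tested (%, vertical axis) that were called higher (left) or lower (right) in 7 comparisons, for genes starting within 20 kb of a bound RLTR13 locus (red), of unbound RLTR13 loci alone (blue) and for all genes tested (grey). In PlaB the red bars for lower genes stand at 8.94%, 9.66% and 20.3% and the grey bars at 3.96%, 4.7% and 8.79%.

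Some of the genes named at 48 h were also lower in PlaB knockouts. *Ifitm1* had 42.2, 44.8 and 42.0 CPM in WT, 18.8, 20.7 and 7.0 in *Obox4* KO, 14.9, 13.7 and 13.8 in *Dux* KO and 8.32, 4.96 and 3.72 in double KO (log2 changes -1.47, -1.60 and -2.89, edgeR adjusted p = 0.00684, 0.00541 and 4.87e-05). It was thus lower both where *Obox4* was induced and where it was deleted. *Tdrd12* behaved alike in *Obox4* KO (-1.03, edgeR adjusted p = 0.00564) and *Dux* KO (-1.12, edgeR adjusted p = 0.00433), and missed the calling limits in double KO (-0.71, edgeR adjusted p = 0.0263). *Msc* was lower in double KO (-1.39, edgeR adjusted p = 0.000599).

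The genes with the largest changes in PlaB *Obox4* KO were chosen after their values were seen. *Olfr1425*, an olfactory receptor gene 7455 bases from RLTR13D6, had 4.72, 5.12 and 4.97 CPM in WT, 0.272, 0.104 and 1.03 in *Obox4* KO, 0.13, 0.0387 and 0.0412 in *Dux* KO and 0 in all double KO libraries (log2 change in *Obox4* KO -3.46, edgeR adjusted p = 0.00224). *Cyp2b23*, a cytochrome P450 gene 19934 bases from RLTR13G, had 9.84, 7.99 and 8.45 CPM in WT and 1.36, 1.04 and 0.788 in *Obox4* KO (-3.04, edgeR adjusted p = 6.8e-06). *Apobec3*, which encodes a cytidine deaminase that restricts retroviruses and starts 14699 bases from RLTR13D5, went from 48.1, 47.1 and 48.7 CPM to 15.2, 15.7 and 22.7 (-1.43, edgeR adjusted p = 6.49e-05). In none of these did a knockout library reach the lowest WT library.

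*Nr0b1*, an orphan nuclear receptor gene of the pluripotency network 10268 bases from RLTR13B4, went from 67.9, 57.3 and 62.3 CPM in WT to 12.7, 11.6 and 30.4 in *Obox4* KO (log2 change -1.78, edgeR adjusted p = 0.00174), and *Slc6a15*, an amino acid transporter gene 13570 bases from RLTR13B1, from 6.83, 7.3 and 5.02 to 1.47, 1.62 and 2.0 (-1.91, edgeR adjusted p = 0.00019). In the other direction, *Sox30*, a SOX gene of spermatogenesis 15291 bases from RLTR13D6, rose from 0.241, 0.644 and 0.425 CPM to 3.4, 2.07 and 2.6 (log2 change 2.60, edgeR adjusted p = 0.00051). *Lhx9*, a LIM homeobox gene of the gonad 10443 bases from RLTR13B1, rose by 2.23 (edgeR adjusted p = 0.00391), with 6.01, 7.15 and 1.39 CPM in *Obox4* KO and 0.805 to 1.22 in WT, so that replicate 3 lay near WT.

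In 2C-embryos, genes near bound loci were called about as often as genes near unbound RLTR13 loci. In *Dux* KD and double KD both sets were called lower more often than genes in general. In double KD against scramble, 55 of 398 were called (13.8%, against 11.6% of all genes), 31 higher (7.79%, against 8.42%) and 24 lower (6.03%, against 3.16%), while genes near unbound loci alone gave 13.8%, with 5.78% lower. *Dux* KD called 24 (6.03%, against 4.3%), 13 higher (3.27%, against 3.25%) and 11 lower (2.76%, against 1.05%), where genes near unbound loci gave 2.8% lower. Both comparisons share the scramble embryos. Between double KD and *Dux* KD 5 were called (1.26%, against 0.754%), none higher and 5 lower (1.26%, against 0.377% in either direction). The rescue against double KD called 21 (5.28%, against 4.37%), 6 higher (1.51%, against 1.1%) and 15 lower (3.77%, against 3.27%), where genes near unbound loci gave 5.34%, with 2.98% lower. Without double KD replicate 1 it called 12 (2.85%, against 1.93%), and without rescue replicate 2 it called 34 (7.96%, against 4.61%). *Olfr1425* was again among the called genes, with 5.48 and 7.4 CPM in scramble, 0.59 and 0.393 in double KD and 2.44 and 2.23 in the rescue (log2 change -3.65 in double KD, edgeR adjusted p = 1.01e-07, and 2.20 from there to the rescue, edgeR adjusted p = 5.93e-05). edgeR called 0 of 398 in embryos labelled *Obox4* KD, against 0.412% of all genes (0.23% higher and 0.182% lower). It called 0 of 412 in morulae and 0 of 315 in blastomeres labelled KO or Het, and in these 2 experiments none of all genes. At an unadjusted edgeR p under 0.05 there were 73 of 398 in *Obox4* KD and 65 of 412 in morulae. Blastomeres labelled KO and Het had 20 and 7 of 315. Genes near unbound loci alone gave 328 of 1610, 280 of 1494, and 79 and 34 of 1303. The share of all genes under that p is not given here, so these counts do not set genes near bound loci apart.

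RNA of RLTR13 was described as a summed share and tested name by name. The deposited counts sum all loci of a name and split reads that map to several places, so that they cannot say which locus was read, and values are given as CPM of repeat counts. In 2C-embryos RLTR13 made up 0.0743% and 0.0733% of repeat counts in scramble, 0.0797% and 0.0859% in embryos labelled *Obox4* KD, 0.103% and 0.102% in *Dux* KD, 0.118% and 0.115% in double KD and 0.0757% and 0.0738% in the rescue. The embryos labelled *Obox4* KD, the *Dux* KD and the double KD embryos thus all stood above scramble without overlap. The rescue did not, and this description of pairs carries no test. In PlaB the share was 0.354%, 0.357% and 0.35% in WT, 0.38%, 0.377% and 0.335% in *Obox4* KO, 0.484%, 0.488% and 0.478% in *Dux* KO, and 0.255%, 0.308% and 0.116% in double KO, so that *Dux* KO lay above WT and double KO below it. It was 0.393% to 0.579% in the induction experiment, 0.36% to 0.706% in morulae and 0.0922% to 0.159% in blastomeres, in tables that were normalised separately. In the smallest library, PlaB double KO replicate 3, this was 2072 counts over all names. All 23 names were tested in all 13 comparisons.

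One call was made with the limits used for the genes: RLTR13B2 in 2C double KD against scramble, 1 of 23 names (against 1.99% of all repeat names). RLTR13B2 had 104 and 83.0 CPM in scramble, 123 and 93.6 in embryos labelled *Obox4* KD, 168 and 147 in *Dux* KD, 174 and 224 in double KD and 115 and 164 in the rescue. It rose by 1.08 on the log2 scale in double KD (SE 0.18, edgeR adjusted p = 0.00117), and DESeq2 called it too. Without double KD replicate 2 the change was 0.88 (edgeR adjusted p = 0.0184) and without scramble replicate 2 it was 0.93 (edgeR adjusted p = 0.0115), past neither limit, and over all alternatives the adjusted p ran from 3.16e-07 to 0.0184. The comparisons with *Dux* KD (0.75, edgeR adjusted p = 0.0218) and of the rescue with double KD (-0.51, edgeR adjusted p = 0.0726) missed the limits, as did all other RLTR13 names.

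In the other comparisons edgeR called 0 of 23 names, and DESeq2 called 0 as well. At an unadjusted p under 0.05 there were 2 names at 12 h (8.7%, against 3.65% of all repeat names), 6 at 48 h (26.1%, against 9.06%) and 3 in embryos labelled *Obox4* KD (13%, against 14.4%). *Dux* KD had 9 (39.1%, against 20.6%), double KD against *Dux* KD 2 (8.7%, against 12.5%) and the rescue 5 (21.7%, against 24%). There were none in morulae (against 14.7%) or in blastomeres labelled KO (against 6.61%), and 2 in those labelled Het (8.7%, against 4.9%). PlaB *Obox4* KO had 8 (34.8%, against 23.7%), *Dux* KO 10 (43.5%, against 29.9%) and double KO 7 (30.4%, against 37.8%), so that the names lay above all repeats in some comparisons and below them in others. Of all repeat names, edgeR called 0.296% at 48 h, 0.284% in *Dux* KD, 0.473% in the rescue, 0.3% in blastomeres labelled KO, 1.23%, 3.8% and 4.84% in the 3 PlaB comparisons, and none in the others.

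RLTR13B2 went the other way after induction. It had 283, 219 and 235 CPM at 0 h, 157, 197 and 222 at 12 h and 147, 136 and 133 at 48 h, a log2 change of -0.82 at 48 h (SE 0.13, edgeR adjusted p = 0.0107) that missed the limits although every 48 h library lay below every 0 h library. RLTR13B1 (421 to 463 CPM at 0 h, 371 to 410 at 48 h) and RLTR13D6 (167 to 205 and 159 to 187) changed by -0.16 and -0.06. In morulae RLTR13B1 was at its highest, with 4110 and 3520 CPM in scramble and 4820 and 1440 in double KD. In blastomeres RLTR13B2 ranged from 87.5 and 74.3 CPM in WT to 59.1 and 17.7 in KO and 371 and 123 in Het, with pairs too far apart to compare.

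In PlaB, RLTR13D6 was lower in all 3 knockouts. It had 165, 167 and 174 CPM in WT, 99.7, 88.3 and 91.9 in *Obox4* KO, 97.9, 93.0 and 96.3 in *Dux* KO and 104, 104 and 67.5 in double KO. The log2 changes were -0.85, -0.82 and -0.82 (SE 0.11, 0.11 and 0.12, edgeR adjusted p = 0.000921, 0.000398 and 0.000471), past the limit on p but under that on size. No knockout library reached the lowest WT library. The names past the limit on p alone were 1 in *Obox4* KO, 3 in *Dux* KO and 5 in double KO, all lower. The share of all repeat names past that limit is not given here, so these counts do not set RLTR13 apart. At an unadjusted edgeR p under 0.05 all repeat names stood at 23.7%, 29.9% and 37.8%. In double KO the names were RLTR13A1, RLTR13B1, RLTR13D5, RLTR13D6 and RLTR13E. Among them were RLTR13B1 (-0.44, edgeR adjusted p = 0.000391) and RLTR13E (-0.86, edgeR adjusted p = 0.00409).

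RLTR13B2 in PlaB *Obox4* KO depended on 1 library. It had 526, 529 and 532 CPM in WT and 358, 369 and 953 in *Obox4* KO, a log2 change of 0.08 that became -0.54 without replicate 3 (edgeR adjusted p = 0.0427). It stood at 870, 928 and 906 in *Dux* KO and 462, 682 and 711 in double KO. Scaling by gene counts in place of repeat counts moved the median of all repeat names by -0.35, -0.32 and -0.93 in the 3 knockouts, and on that scale 1, 2 and 16 RLTR13 names were called (4.35%, 8.7% and 69.6%), all lower, against 3.61%, 7.69% and 39.8% of all repeat names. RLTR13D6 was lower on both scales, at -1.20, -1.14 and -1.74 on the second.

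**Figure D5:**
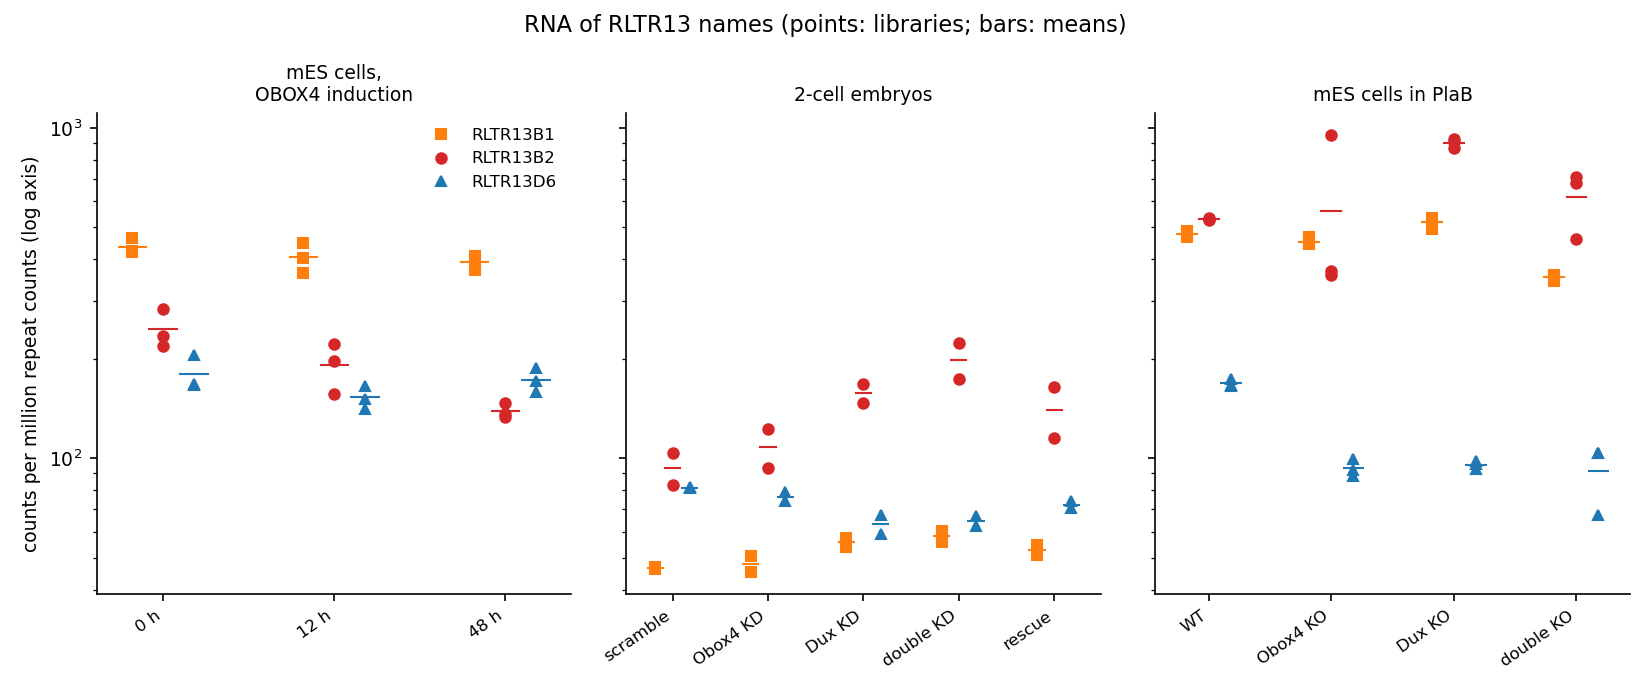
RNA of RLTR13B1, RLTR13B2 and RLTR13D6 as CPM of repeat counts (vertical log axis) in mESCs after *Obox4* induction, in 2C-embryos and in PlaB-treated mESCs, with 1 point per library and means as bars. RLTR13D6 stands at 165 to 174 in PlaB WT and at 104 or less in the knockouts, and RLTR13B2 rises from 83.0 and 104 in 2C scramble to 174 and 224 in double KD.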

How the data were processed

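The RLTR13 loci and the gene lists were chosen with earlier results of these data known. Gene counts and repeat expected counts were deposited by the authors, who trimmed reads with fastp 0.23.2, mapped them to GRCm38 with STAR 2.7.9a and counted with featureCounts 2.0.1, discarding multi-mapping reads for genes and splitting them for repeats. In the blastomere tables gene counts were fractional too, and all fractional counts were rounded here. CUT&RUN reads had been mapped with Bowtie2 2.4.1 and peaks called per replicate with MACS3 3.0.0a6. The deposited peak lists hold a score, a fold enrichment, -log10 p and q values and, for narrow peaks, a summit position.

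A locus was under a peak if they shared a base, and bound if this held in at least 2 of 3 OBOX4 lists. Wilson intervals are at 95%, and a count of 0 was given a limit of 3 counts. Genes and repeat names were tested with edgeR 4.0.16 (quasi-likelihood, TMM, R 4.3.3) over each whole table, after a filter on low counts, at an adjusted p of at most 0.01 and a log2 change of at least 1, with all groups of an experiment in the fit. DESeq2 1.42.0 was an alternative. Histone lists were compared by exact permutation (scipy 1.17.1). Scripts were tested on simulated data. Genes named at 48 h were those called within 20 kb of a bound locus, up to 12 by size of change with a mean of at least 20 counts, clone names left out, and 1 gene that met this rule is not reported here. Deviations over genes of libraries with the same replicate number correlated at 0.67, 0.43 and 0.23 between 48 h and 0 h. Between 48 h and 12 h they correlated at -0.84, -0.6 and -0.68, so the numbers did not establish a pairing. Sequence was read for 9499 loci. No CUT&RUN control library was used here, and for 3 control samples the labels disagree. The OBOX4 and DUX peaks were thus not set against non-immune IgG or FLAG CUT&RUN of WT mESCs here.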

Additional observations from a re-analysis of the deposited data

Results flagged for a closer look

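For RLTR13D6 and RLTR13B1 RNA under PlaB, a test of whether the effect of *Obox4* loss differs between *Dux* KO and WT mESCs gave adjusted p values just above the limit of 0.01 used here, so the differences did not pass it. For RLTR13D6 the effect in *Dux* KO minus that in WT was 0.85 on the log2 scale (SE 0.16, edgeR adjusted p = 0.0135), since it was -0.85 in WT while *Dux* KO (97.9, 93.0 and 96.3 CPM) and double KO (104, 104 and 67.5) overlapped. For RLTR13B1 it was -0.48 (SE 0.085, edgeR adjusted p = 0.0126), with *Dux* KO at 531, 533 and 496 CPM and double KO at 344, 357 and 359. Leaving out the libraries that stood apart, PlaB *Obox4* KO replicate 3, double KO replicate 3 or both, gave 0.84 to 0.97 for RLTR13D6 (edgeR adjusted p from 2.76e-06 to 0.0161) and -0.49 each time for RLTR13B1 (edgeR adjusted p from 2.67e-05 to 0.00769), alternatives that were chosen after seeing the data. *Obox4* RNA in the *Dux* KO cells was already as low as in double KO, and its part in these differences was not tested.

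The change of H3K27me3 over RLTR13 loci in PlaB differed between *Obox4* KO (0.482 percentage points) and WT (-0.308) by 0.79 points (exact permutation over 400 arrangements, p = 0.04), which did not pass after adjustment over the 3 marks (adjusted p = 0.12, exact permutation).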

How the results depend on the processing

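Of 359 alternatives to 39 results, 286 kept direction and side of the threshold, or stayed within the error or 1.5 times the count. The share of RLTR13 loci under OBOX4 peaks (12.9%) was 15.8% with peaks of at least 1 list, 11% with all 3 lists or with the summit in the locus, 9.19% at -log10 q of at least 10, 7.83% with 50% of the locus covered and 11.1% to 12% without 1 list. RLTR13B2 gave 51.9%, 40.1% and 28.3% with 1 list, the q limit and the covered share, RLTR13B1 28.2%, 20.8% and 16.3%, and RLTR13D6 35.9%, 17.3% and 16.8%, with 23.2% for all 3 lists and 23.5% to 26.6% without 1 list. The DUX share was 0.0839% at the q limit and 0.0105% with 50% covered.

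Called RLTR13 names were 0 to 1 without 1 library in 2C double KD, in both blastomere comparisons and in PlaB double KO. The name was RLTR13B2 in blastomeres, without KO replicate 1 (-2.19) or Het replicate 2 (2.19), and RLTR13D4 in PlaB, without double KO replicate 2 (-1.01). Scaling by gene counts called 1, 2 and 16 names in PlaB *Obox4* KO, *Dux* KO and double KO.

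Within 100 kb of bound loci 15 genes were called at 12 h (0.977%, against 0.757% of all genes), 72 at 48 h (4.69%, against 3.95%), 244 in 2C double KD (12.7%, against 11.6%), 97 in the rescue (5.04%, against 4.37%) and 180, 172 and 379 in PlaB (9.33%, 8.91% and 19.6%, against 8.88%, 6.32% and 18%), nearer to all genes than at 20 kb. At 12 h, 11 were called with no filter and 10 by DESeq2, and 2 to 6 without 1 library. Without 1 library the counts were 10 to 16 at 48 h, 12 (without double KD replicate 1) to 34 (without rescue replicate 2) in the rescue, and 19 to 70, 28 to 29 and 65 to 88 in PlaB. With the replicate block 2 were called at 12 h, 11 at 48 h, 55 in 2C double KD, 21 in the rescue and 35, 36 and 89 in PlaB. The block moved the counts at 48 h and 12 h by over 1.5 times and no other count. At 48 h it also lowered the share of all genes called, from 3.95% to 2%. Where no share of all genes stands beside a count here, the count shows its dependence on the processing alone. Between 12 h and 0 h the correlations by replicate number were -0.68, -0.52 and -0.15.

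As a ratio to all repeat loci, the H3K27ac differences turned to 1.16 for PlaB against untreated WT, -0.359 for untreated *Obox4* KO against WT and -2.85 for PlaB *Obox4* KO against PlaB WT. For H3K27me3, PlaB against untreated WT turned to 0.0489 at -log10 q of at least 5, and untreated *Obox4* KO against WT (-0.014) to 0.192 there, 0.0315 with 50% covered, 0.297 in bound loci alone and -0.0437 to 0.0245 without 1 list (turning without KO replicate 3, and to 0.014 without WT replicate 2). The cause was not tested.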
